A study of Xenopus tropicalis with 9 samples.

Results

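Mature chondrocytes were compared with immature chondrocytes of the humerus, the bone of the upper arm, in Xenopus tropicalis, the western clawed frog. The comparison held 6 of the 9 libraries of the study, 3 labelled immature and 3 labelled mature by cell type, and covered all 10336 genes of the deposited table. Cells were taken by laser capture microdissection, in which chosen areas are cut from tissue sections. All 6 libraries came from untreated wild-type animals at stage NF 57, aged 22 to 24 days post fertilisation and kept at 27 to 28 °C. The captured RNA was amplified in 1 round before sequencing, per the labels' protocols. The other 3 libraries, osteoblasts of the lower jaw, did not enter the main fits.

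Chondrocytes are the cells of cartilage, and in the long bones of vertebrates they first divide and lay down a matrix rich in type II collagen and aggrecan. They then stop dividing, enlarge, switch to a matrix that contains type X collagen, and prepare the cartilage for mineral, vessels and bone. The comparison asks which transcripts change between the early and the late state within 1 skeletal element. The table names genes by Ensembl identifiers alone, and 0 of the 10336 could be paired with a symbol from the reference used here. For this reason neither the labelled cell types nor any cartilage or hypertrophy gene list could be checked, and genes appear below by identifier with no known role.

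Values are the authors' deposited values, and their low values are spaced like read counts scaled by a factor per library and rounded. The scaling method is not given in the sources used here, so the read estimates below rest on that spacing. The spacing of low values put 1 read at 0.732 to 0.894 in the immature libraries, 0.939 in mature replicate 1, and 1.595 and 1.588 in mature replicates 2 and 3. That corresponded to an estimated 9470000 to 10730000 reads in the immature libraries and to 8090000, 7160000 and 8850000 in mature replicates 1, 2 and 3. The deposited totals were 11414708 and 14055110 in mature replicates 2 and 3, 7594328 in mature replicate 1, and 7854945 to 8860505 in the immature libraries. Mature replicates 2 and 3 listed 2014 and 1430 genes at 0, against 958 in mature replicate 1 and 759 to 1026 in the immature libraries. Their 100 most abundant genes took 68.0% and 71.4% of the deposited total, against 55.1% in mature replicate 1 and 58.0% to 63.5% in the immature libraries. The part of depth and of this share in the results below was not tested. Which animal each library came from is not in the labels, so the replicate spread behind every p-value may be partly or wholly technical.

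The 3 mature libraries did not form a group. Mature replicates 2 and 3 stood apart from every immature library, and mature replicate 1 did not. Of 8184 genes tested, 1 differed at least 4-fold between mature replicate 1 and immature replicate 3, the lowest number among the 15 pairs of libraries. Mature replicate 1 differed at least 4-fold from immature replicates 1 and 2 in 132 and 30 genes. The immature libraries differed from each other in 29 to 108 genes by the same measure. Mature replicate 1 differed from mature replicates 2 and 3 in 1299 and 907 genes, and the immature libraries differed from those same 2 libraries in 755 to 1263. Mature replicates 2 and 3 also differed from each other, in 647 genes.

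**Figure D1:**
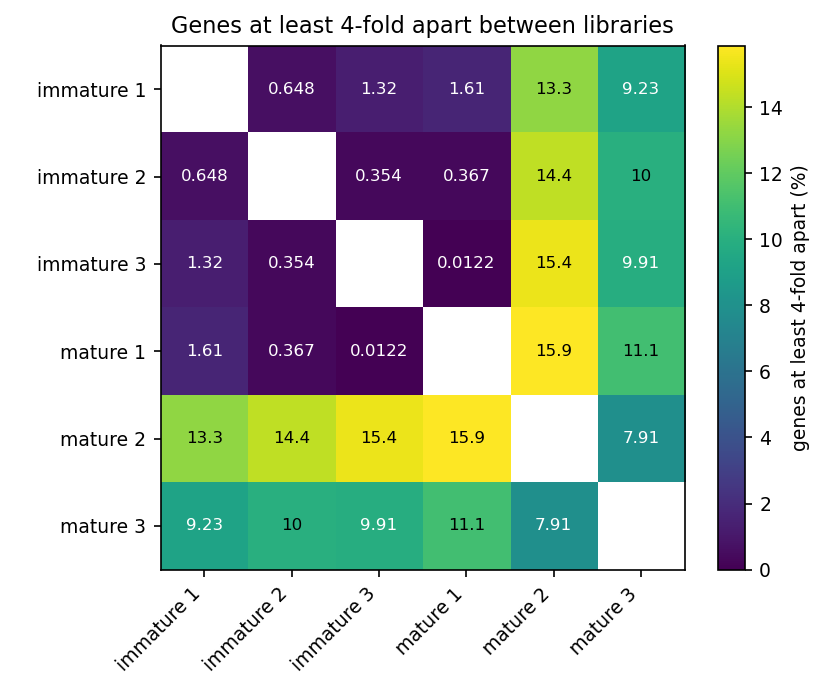
Each cell gives the percentage of 8184 tested genes whose log2(value + 9.68) differed by at least 4-fold between the library of its row and that of its column. Mature replicate 1 sits with the immature libraries at 0.0122% to 1.61%, while mature replicates 2 and 3 differ from all 4 of those libraries in 9.23% to 15.9% of genes.

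Mature replicate 1 and immature replicate 3 were still distinct libraries. For genes of 20 to 100 estimated reads their median squared difference was 2.85 times what counting noise alone gives. That ratio was 6.52 to 8.88 between immature libraries, 6.84 and 10.6 between mature replicate 1 and the other immature libraries, and 21.4 to 39.6 wherever mature replicate 2 or 3 was set against another library, each other included. The first principal component of the 6 libraries held 62.5% of the variance. It placed the immature libraries at -26.83, -33.83 and -41.41, mature replicate 1 at -43.72 and mature replicates 2 and 3 at 85.40 and 60.40. Mature replicate 1 thus lay at the far immature end. On the second component (18.8%) the scores put mature replicate 2 at -42.67 and mature replicate 3 at 54.85, with the other 4 libraries between -10.03 and 2.15. The library titles give immature replicate 3 and mature replicate 3 the same number, 62. Those libraries differed at least 4-fold in 811 genes.

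With all 6 libraries no gene passed the test. A limma fit of log2(value + 9.68), where 9.68 is 1 ppm of the mean deposited total, called 0 of 8184 genes at an adjusted p under 0.05 (0%), and the smallest adjusted p was 0.579. Without adjustment, 690 genes (8.43%) had a p under 0.05, 288 of them higher (3.52%) and 402 lower (4.91%) in mature chondrocytes. The 3 mature libraries lay wholly above the 3 immature ones for 385 genes (4.70%) and wholly below them for 501 (6.12%), 10.8% together. The median log2 difference among those was 0.80 for the higher and -0.99 for the lower genes. Random labels on 3 against 3 libraries would separate the groups of a gene, in either direction, with a probability of about 0.1. The 95% interval of a single log2 difference was ± 1.10 for the median gene. The median SD of a gene was 0.35 on the log2 scale in the immature and 0.68 in the mature group, and 0.47 between mature replicates 2 and 3 alone. The last rests on fewer libraries than the others and cannot be set directly against them. With libraries weighted by their agreement with their group, limma called 116 of the 8184 genes higher and 93 lower. The weights were 0.319 for mature replicate 1, 0.475 and 0.927 for mature replicates 2 and 3, and 1.44 to 3.33 for the immature libraries. They were estimated from these same values and count mature replicate 1 least, so these calls are no independent support.

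Among genes whose groups did not overlap, ENSXETG00000018980 and ENSXETG00000032270 had the highest log2 differences, and neither passed the test with all 6 libraries. ENSXETG00000018980 had deposited values of 0, 1 and 4 in the immature libraries and 11, 107 and 882 in mature replicates 1, 2 and 3. It was near the floor in all immature libraries and in mature replicate 1, and the mature libraries spread over a wide range. Its log2 difference was 3.52 (SE 1.10, limma adjusted p = 0.579) with all 6 libraries and 4.85 (SE 0.76) without mature replicate 1. That size depends on the pseudocount, from 2.22 to 4.86 with all 6 libraries and from 3.18 to 6.37 without mature replicate 1. It was 2.13 when mature replicate 3 alone was left out. No immature library reached the filter value, so the gene was tested only through its mature libraries, and its p without mature replicate 1 is not given.

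ENSXETG00000032270 had values of 185, 285 and 318 in the immature libraries and 446, 5380 and 5007 in the mature ones. Mature replicate 1 lay above the highest immature library, but 18.1% of the way from the immature mean to that of mature replicates 2 and 3 on the log2 scale. The log2 difference was 3.12 (SE 0.82, limma adjusted p = 0.579) with mature replicate 1 and 4.29 (SE 0.33, limma adjusted p = 5.98e-05) without it. Mature replicate 1 was left out because of its values, and the gene was picked by size, so the second p is no independent support.

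The 2 lowest log2 differences by the same rule were those of ENSXETG00000012932 and ENSXETG00000021072. ENSXETG00000012932 had values of 1134, 1040 and 1413 in the immature libraries and 892, 35 and 19 in the mature ones. Its level in mature replicate 1 was slightly below the lowest immature library, and the other mature libraries were far lower. The log2 difference was -3.51 (SE 1.06, limma adjusted p = 0.579) with mature replicate 1 and -5.06 (SE 0.37, limma adjusted p = 5.98e-05) without it. ENSXETG00000021072 had values of 142, 129 and 217 in the immature libraries and 120 in mature replicate 1, and was listed at 0 in mature replicates 2 and 3. Its log2 difference, -2.87 (SE 0.93, limma adjusted p = 0.579) with and -4.12 (SE 0.49, limma adjusted p = 0.000682) without mature replicate 1, depends on the pseudocount. As above, the p-values of both genes without mature replicate 1 are no independent support. For all 4 genes the groups did not overlap, and mature replicate 1 lay 8.04% to 18.2% of the way from the immature mean to mature replicates 2 and 3.

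**Figure D2:**
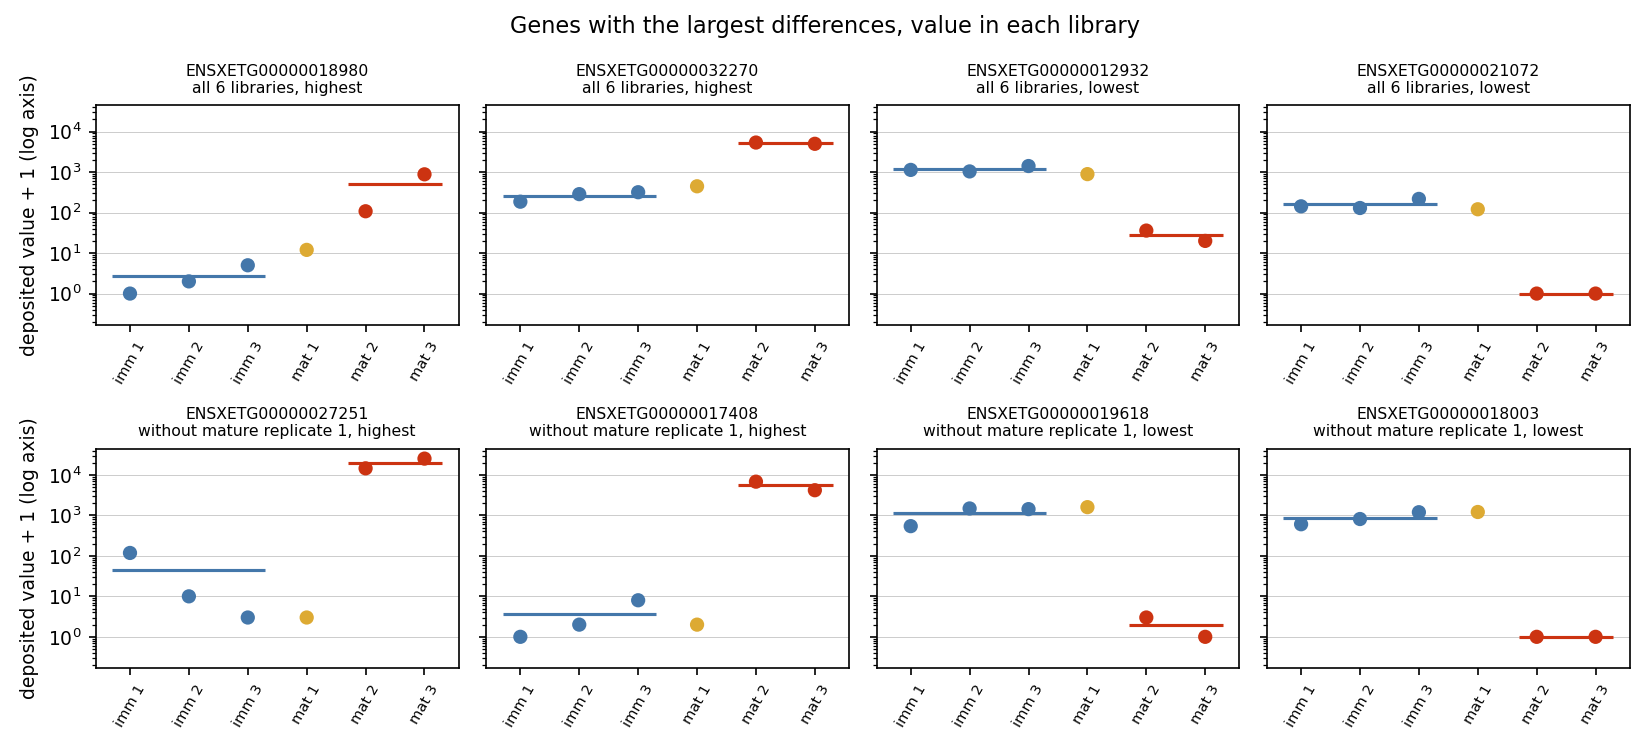
Points give the deposited value plus 1, on a log axis, of 8 genes in immature (blue), mature replicate 1 (yellow) and mature replicates 2 and 3 (red), and lines mark the mean of the immature libraries and of mature replicates 2 and 3. The upper row holds genes named from all 6 libraries and the lower row genes named without mature replicate 1. In every panel mature replicate 1 lies beside the immature libraries.

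Without mature replicate 1, many genes separated mature replicates 2 and 3 from the immature libraries. This library was set aside because of its values, so the calls that follow are no independent support for a difference between the labelled groups. Of 8628 genes tested, limma called 654 higher (7.58%) and 762 lower (8.83%) in mature replicates 2 and 3, 1416 in all (16.4%). An unadjusted p under 0.05 was reached by 2704 genes (31.3%). Of the 654 higher genes, 185 passed the filter only through mature replicates 2 and 3. No immature library had 9.68 or more for them, so their groups could not overlap. They were among 238 such genes tested, of which 0 were called lower. The other 469 higher genes reached 9.68 in at least 1 immature library. Over the 8184 genes tested with all 6 libraries, the fit without mature replicate 1 called 449 higher and 699 lower. Higher genes had a median log2 difference of 2.02 and lower genes one of -2.02. At least 8-fold differences were found for 160 of the higher and 116 of the lower genes, and the largest were 9.31 and -6.64 on the log2 scale. Of the 762 lower genes, 108 were listed at 0 in both mature replicates 2 and 3, so that the size of their difference depends on the pseudocount. The groups of 2 and 3 libraries did not overlap for 3976 genes (46.1%), 1710 with mature replicates 2 and 3 higher (19.8%) and 2266 with them lower (26.3%). With 2 against 3 libraries, random labels separate the groups of a gene more often than with 3 against 3.

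The number of calls depended on the spread and on the scaling. It fell to 493 to 641 when any 1 immature library was left out, and to 366, with 223 higher and 143 lower, when the osteoblast libraries shared the estimate of the spread. With every library at an equal total, the median log2 difference over all tested genes went from -0.16 to -0.67, and 409 genes were higher and 1914 lower. Of the 1416 calls, 296 were called in the same direction under 14 alternative fits as well, 178 higher and 118 lower. Of the 178, 56 had no immature library at the filter value. The median log2 difference of these was 3.58 and -3.21.

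Those 296 genes were picked for being called in fits that share these libraries, so large differences follow from the choice. Mature replicate 1 was set aside for its likeness to the immature libraries, so its level here is a description only. For the 178 higher genes, the 56 without an immature library at the filter value included, the median deposited value over immature means was 18.2. Their medians were 646 and 603 in mature replicates 2 and 3, and 16.5 in mature replicate 1. The 118 lower genes had a median of 277 over immature means, 284 in mature replicate 1, and 3 and 13 in mature replicates 2 and 3. Of the lower genes, 19 were listed at 0 in both of the last. In bulk captured tissue, fewer cells of a type and less RNA per cell cannot be told apart.

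**Figure D3:**
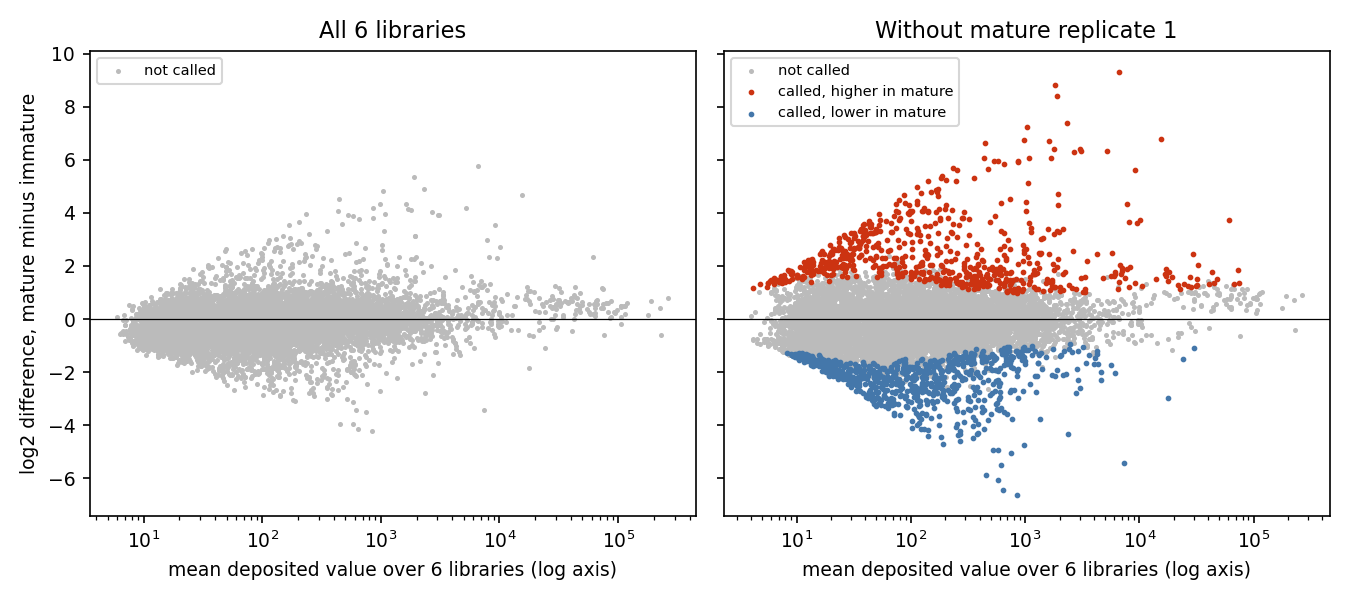
Each point is a tested gene, placed by its mean deposited value over 6 libraries (log axis) and its log2 difference, mature minus immature, with all 6 libraries (left) and without mature replicate 1 (right). With all 6 no gene is called, and without mature replicate 1 there are 654 higher (red) and 762 lower (blue) genes.

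The highest gene without mature replicate 1 was ENSXETG00000027251, with values of 117, 9 and 2 in the immature libraries and 14516 and 25242 in mature replicates 2 and 3. Mature replicate 1 held a value of 2, as low as the lowest immature library. Its log2 difference was 9.31 (SE 0.82, limma adjusted p = 0.000130), and 5.75 (SE 2.43, limma adjusted p = 0.579) when mature replicate 1 was kept. The next was ENSXETG00000017408, with values of 0, 1 and 7 in the immature libraries, 1 in mature replicate 1, and 6801 and 4181 in mature replicates 2 and 3. Its fitted log2 difference was 8.80 (SE 0.46), a size that depends on the pseudocount. It passed the filter only through mature replicates 2 and 3, where it is high, so its p is not given as support. For the same reason it was not among the genes tested with all 6 libraries.

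The lowest gene was ENSXETG00000019618, at 541, 1481 and 1427 in the immature libraries and 2 and 0 in mature replicates 2 and 3. Mature replicate 1, at 1596, was above every immature library. The log2 difference was -6.64 (SE 0.51, limma adjusted p = 5.98e-05), and -4.22 (SE 1.62, limma adjusted p = 0.579) with mature replicate 1. ENSXETG00000018003 followed, at 603, 812 and 1196 in the immature libraries and listed at 0 in mature replicates 2 and 3. Mature replicate 1 was again above every immature library, at 1211. The log2 difference was -6.45 (SE 0.45, limma adjusted p = 5.61e-05) without and -4.12 (SE 1.55, limma adjusted p = 0.579) with mature replicate 1. The sizes for both genes depend on the pseudocount.

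The osteoblast libraries had no part in choosing these genes, and the 4 highest genes of both fits differed there. ENSXETG00000027251 was abundant in osteoblasts, at 2151, 3188 and 10269, whereas ENSXETG00000017408 and ENSXETG00000018980 were listed at 0 in all 3 osteoblast libraries. ENSXETG00000032270 stood at 395, 41 and 374 there. The 4 lowest genes had osteoblast values of 0 to 50. Across all calls, the median value in the 3 osteoblast libraries was 104.5, 135 and 158 for the 654 higher genes and 41.5, 63 and 56 for the 762 lower ones, beside 84, 102 and 102 for all genes tested.

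Detection was counted without a fit, on the deposited values of all 10336 genes. The filter value took fewer reads to reach in mature replicates 2 and 3, where 1 read stood for 1.595 and 1.588. In the other libraries 1 read stood for 0.732 to 0.939. In mature replicates 2 and 3 but in no immature library, 238 genes had at least 9.68, the filter value, and their median over those 2 libraries was 41. Mature replicate 1 had as much for 7 of the 238 and listed 74 at 0. In every immature library but in neither mature replicate 2 nor 3, 372 genes reached it, with a median immature value of 25.7. Mature replicate 1 reached it for 331 of the 372. Over all 10336 genes it reached the filter value for 7832. Its counts here are a description only, since it was set aside for its likeness to the immature libraries. Of the same 372 genes, 106 were listed at 0 in both mature replicates 2 and 3, the libraries with the most genes at 0.

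The place of mature replicate 1 at the genes called without it is a description and no independent reading, since the library was set aside for its likeness to the immature ones. At 1386 of the 1416 genes its distance to the mean of the immature libraries was the smaller, and at 30 (2.12%) its distance to the mean of mature replicates 2 and 3. Over all 8628 genes tested, where the means often lie close together, the share nearer to mature replicates 2 and 3 was 23.7%. On a scale with the immature mean at 0% and the mean of mature replicates 2 and 3 at 100%, its median position was -1.88% at the higher and -3.21% at the lower genes. The middle 50% of called genes lay between -17.5% and 11.6%.

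Values outside the immature range went both ways, among called genes as among all genes tested. Mature replicate 1 lay beyond all 3 immature libraries on the side of mature replicates 2 and 3 for 294 called genes (20.8%) and on the opposite side for 389 (27.5%). Over all 8628 genes tested these numbers were 1986 and 2159. Mature replicate 1 reached the level of mature replicate 2 or 3 at 4 of the 1416 genes (0.28%), against 1301 of the 8628 tested (15.1%). A low share follows from the choice, since called genes are those where mature replicates 2 and 3 lie far from the immature libraries. Among the 654 higher genes 137 lay on the mature side (20.9%) and 153 on the opposite one (23.4%). Among the 762 lower genes these were 157 (20.6%) and 236 (31.0%).

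**Figure D4:**
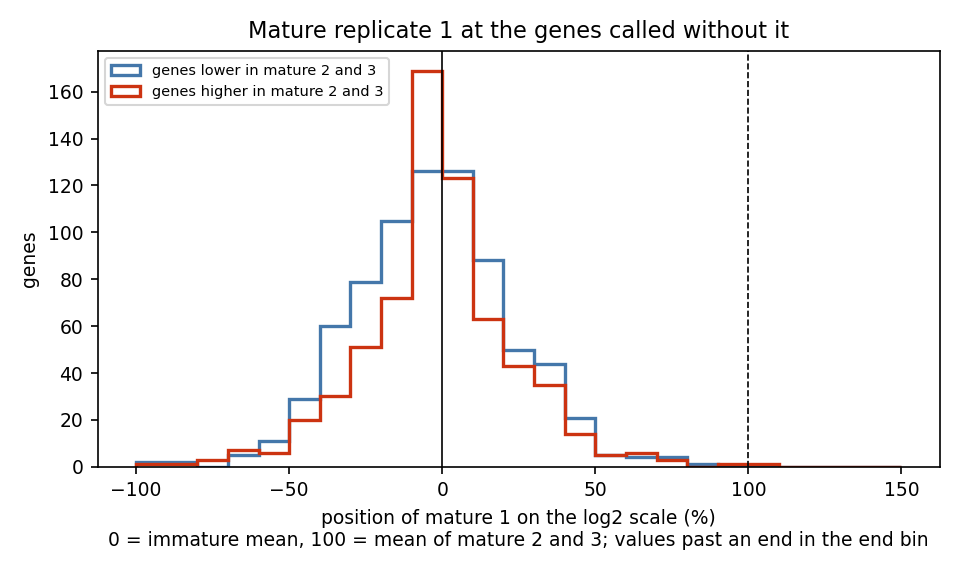
The histogram counts genes called without mature replicate 1 by where mature replicate 1 lay on the log2 scale, from 0% at the immature mean to 100% at the mean of mature replicates 2 and 3. Both the 654 higher (red) and the 762 lower (blue) genes centre close to 0%, with medians of -1.88% and -3.21%.

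The most abundant genes had a higher median difference than genes of middle levels. Genes were sorted, by a choice made after seeing the data, on their deposited value in mature replicate 1, a library outside the fit, since sorting by a mean that holds the compared libraries would itself move genes with high mature values into the upper classes. These values are not corrected for gene length. Among 121 genes of 10000 or more, the median log2 difference without mature replicate 1 was 0.77, and 17 were called higher (14.0%) and 6 lower (4.96%). In the 4 classes between 30 and 10000 the median ran from -0.28 to -0.15, and more genes were lower than higher in each. From 30 to 100 there were 91 higher and 176 lower of 1958 genes, and from 1000 to 10000 there were 55 and 85 of 724. Genes under 30 had 311 higher and 117 lower of 2257, a class that holds most genes tested only through mature replicates 2 and 3. Mature replicate 1 lay close to the immature libraries, so sorting on it can itself place genes low in those libraries in this class. In the same way it can place genes high in those libraries in the upper classes. Sorted by the mean over the 6 libraries, genes under 30 had 141 higher and 155 lower of 1989. From 1000 to 10000 that sorting gave 99 higher and 49 lower of 692, with a median of 0.08. The direction in this class thus depended on the sorting. In the classes from 30 to 1000 more genes were lower than higher with either sorting.

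With every library at the same total, 2 of the 121 most abundant genes were called higher (1.65%) and 19 lower (15.7%). Lower calls prevailed over all genes at that scaling, where 2323 of 8653 were called and 17.6% of those were higher. In the classes from 30 to 10000, 1.55% to 3.73% of genes were called higher and 20.3% to 36.5% lower. No gene called on both scalings changed direction. The median log2 difference of the 121 most abundant genes was then 0.16. It lay 0.83 above the median of all genes tested, against 0.93 above it on the deposited scaling.

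**Figure D5:**
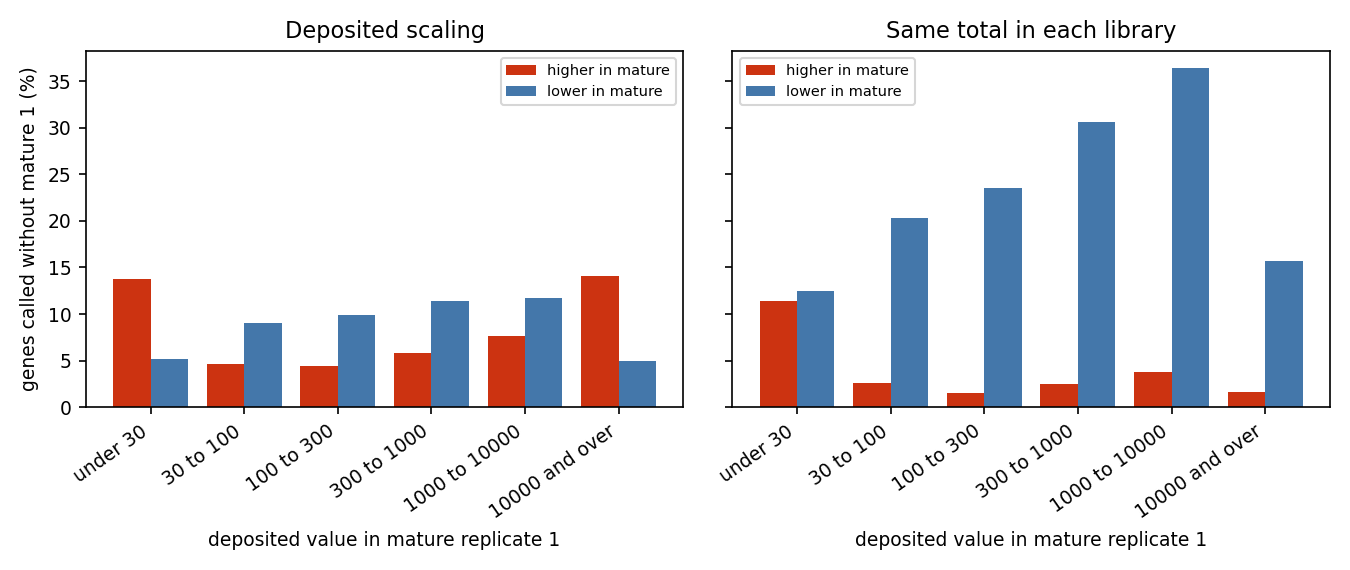
Bars give the percentage of genes called higher (red) or lower (blue) in mature replicates 2 and 3, by deposited value in mature replicate 1, on the deposited scaling (left) and with each library at the same total (right). On the deposited scaling 14.0% of genes of 10000 or more were higher and 4.96% lower, and at the same total 1.65% and 15.7%. In the classes from 30 to 10000 at the same total, 1.55% to 3.73% were higher and 20.3% to 36.5% lower.

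The 5 most abundant genes of the 6 libraries were not called in either fit. ENSXETG00000010839 had values of 191936, 223762 and 169529 in the immature libraries and 281708, 391286 and 336215 in the mature ones, mature replicate 1 included. On the deposited scaling the groups did not overlap, and the log2 difference was 0.78 (SE 0.56, limma adjusted p = 0.650), or 0.90 (SE 0.41) without mature replicate 1. ENSXETG00000004773 likewise lay higher in all 3 mature libraries, at 174276, 278601 and 251745, than in the immature ones, at 120966, 143017 and 171129. Its log2 difference was 0.68 (SE 0.54, limma adjusted p = 0.676), or 0.88 (SE 0.40) without mature replicate 1, and mature replicate 1 lay barely above the highest immature library. As a share of each library's total, the groups overlapped for both genes. Brought to the same total with all 6 libraries, their log2 differences were 0.42 and 0.32.

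ENSXETG00000001182 had values of 311635, 214051 and 308877 in the immature libraries and 136148, 233451 and 185410 in the mature ones. On the deposited scaling mature replicate 1 was the lowest of all 6 libraries, and the groups overlapped (log2 difference -0.60, SE 0.57, limma adjusted p = 0.720). Without mature replicate 1 the difference was -0.40 (SE 0.42). With all 6 libraries at the same total it was -0.96 (limma adjusted p = 0.555). As a share of each library's total, the groups did not overlap for this gene. Its mean share was 3.33% in the immature libraries and 1.68% in mature replicates 2 and 3, and its share in mature replicate 1 was 1.79%. ENSXETG00000014661 ranged from 148136 to 239124 in the immature and from 154775 to 407378 in the mature libraries, with mature replicate 1 at the low end. ENSXETG00000021236 ranged from 120181 to 197880 and from 126823 to 236121. Their log2 differences were 0.41 (SE 0.61) and 0.15 (SE 0.56), and 0.73 (SE 0.46) and 0.40 (SE 0.42) without mature replicate 1. The first was 0.034 without mature replicate 2 and 0.050 with all 6 libraries at the same total. The second changed sign when every library was brought to the same total (-0.22) and with quantile normalization, to nearly 0.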

How the data were processed

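RNA from laser-captured cells was sequenced, and 6 cartilage libraries of a table of 9 were used. Per the submitters' processing notes, the authors used Trimmomatic 0.36, STAR 2.5.3a and edgeR. No genome build, annotation, counting or scaling method is given in the sources used here. The authors' deposited values were treated as a score, since low values are spaced as in scaled and rounded counts, and no count model was run. At over 1 per read, as in mature replicates 2 and 3, some whole numbers are skipped. At under 1 per read, as in the other cartilage libraries, some whole numbers stand for more than 1 read count.

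Genes at 1 ppm (a share times 1000000) of the mean total or more, in at least 3 of the 6 libraries or 2 of the 5 without mature replicate 1, were tested. log2(value + 9.68) was fitted by limma 3.58.1 (R 4.3.3), letting the variance follow the mean level. Adjustment was by the Benjamini-Hochberg method over all genes tested, and a call is an adjusted p under 0.05. The pseudocount understates differences of low genes. No gene in the table has a highest value under 12.

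The value of 1 read was estimated by likelihood from the spacing of low values. The fit and this estimate were tested on simulated data. For the fit, changes were planted only in genes well above the filter value, with the same spread for all genes of a group. Recovery at low genes was not tested. Immature and mature replicates are numbered in accession order.

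The genes named are the 2 highest and 2 lowest log2 differences without overlap in each fit, among calls where there were any, and the 5 most abundant. The comparison, lists and alternatives were chosen with earlier results of these data known. The 22 gene lists could not be applied without gene names. Python 3.11.15, numpy 2.4.6, pandas 2.3.3 and matplotlib 3.10.9 were used.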

Additional observations from a re-analysis of the deposited data

How the results depend on the processing

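With all 6 libraries, 0 genes were called in the 12 alternatives other than array weights and leaving out a library, and array weights gave 209; the threshold of 0.01 could only give 0. Leaving out 1 library gave 0 to 1148, the latter without mature replicate 1 over the same 8184 genes. Without mature replicate 1, 1416 genes were called. That number was 766 with no filter on low values, 2323 with the same total in each library, 891 with array weights, 526 at an adjusted p under 0.01 and 366 with the osteoblast libraries sharing the spread. Leaving out 1 more library gave 493 to 1911. The fits without mature replicate 2 or 3 hold a single mature library, which is assumed to vary like the immature ones. In the other alternatives the number stayed within 1.5 times. None of the 14 alternative fits that kept the filter gave a call of the opposite direction, which fits sharing libraries can hardly do.

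At 97.9% of the genes called without it, mature replicate 1 was closer to the immature mean, 97.6% with the same totals, 93.6% on linear ppm and 99.5% with the osteoblasts sharing the spread. These shares follow from why the library was set aside and say nothing of stability. ENSXETG00000021236 (0.15 with all 6 libraries) reached at most 0.40 when 1 library was left out, that is without mature replicate 1. It turned negative with all 6 libraries under quantile normalization (-0.0037), at the same totals (-0.22), without immature replicate 3 (-0.078) and without mature replicate 3 (-0.046), and without mature replicate 1 at the same totals (-0.20). The osteoblast and group-weight fits and the sorting by mature replicate 1 were chosen after seeing the data. Why the counts moved was not tested. No paired analysis was possible, since the labels do not give the animal and immature and mature libraries share only 1 title number, 62. Whether the libraries numbered 62 come from the same animal is not known, and the fits treated them as independent. Depth limits what can be said of genes near 0 in mature replicates 2 and 3.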
